A study of Mus musculus with 9 samples.

Results

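Line 45566B is a mammary tumour cell line from an FVB/N mouse carrying MMTV-neu, a transgene in which a viral promoter active in mammary epithelium drives rat neu, the Erbb2 oncogene. It was sequenced in 2 states, labelled Jak1 Wildtype (title 45566B-Wt-Puro) and Jak1 Knockout (title 45566B-Cre-Puro), with 1 RNA library each. Both states were treated with puromycin, a drug that kills mammalian cells lacking a resistance gene, and both were adherent cultures whose medium held insulin, hydrocortisone, epidermal growth factor and serum. Cre is a recombinase that cuts out DNA between its target sites. How it was delivered, and whether each state is 1 clone, is not stated in the labels. The 2 libraries belong to a set of 9, with 5 wild-type and 4 knockout libraries. Lines 45555 and 47298 are tumour lines of the same strain and transgene with the same pair of states and the same puromycin treatment, while lines 33373 and 33377 (wild type) and 46295 (knockout) stand alone and are not among the lines named for puromycin. Levels are given in FPKM, a fragment number divided by the length of the transcript and the depth of the library, so levels can be compared between genes. A gene was kept at 5 FPKM or more in at least 1 of the 2 libraries of 45566B, leaving out symbols of small RNA genes (Mir, Snor, Scarna and Rnu), and 8705 of 24346 genes were kept. Each difference is log2(FPKM + 1) of the knockout minus that of the wild type. There are no replicates, so nothing within this pair carries an error or a p-value, and every value of the pair is a description of 2 libraries.

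JAK1 is a tyrosine kinase bound to the receptors of type I, II and III interferons and to those of the interleukin-6 and common gamma chain families. After interferon binds, JAK1 and its partner kinases phosphorylate STAT factors, which bind interferon-stimulated response elements together with IRF9, or gamma-activated sites as pairs. The genes switched on this way include antiviral effectors, the factors Stat2, Irf9 and Irf7 themselves, and the machinery that presents peptides on MHC class I. The interleukin-6 family acts mainly through STAT3.

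The wild-type library of 45566B was the deepest of the 9. Judged by what 1 fragment is worth at low genes, the knockout library had 0.66 of its depth and the other 7 libraries between 0.418 and 0.768, and the absolute number of fragments is unknown. The summed FPKM were 612686 in wild type and 574559 in knockout. Scaling both to the same sum would raise every difference by 0.10. The columns of 33373 and 33377 are named in another form than the other 7, and whether they were made in the same run is not stated. Jak1 itself stood at 16.1 FPKM in wild type and 14.2 FPKM in knockout (chromosome 4 from 101152367 to 101265282, minus strand, build mm10). A value for the whole gene cannot show whether a part of it was removed, so Jak1 is only a weak check of the labels. Markers of the labelled tissue were present. Of 30 luminal epithelial markers 23 were kept, with sums of 6305 FPKM in wild type and 6032 FPKM in knockout, and Epcam, an epithelial adhesion molecule, was at 720.1 and 681 FPKM. None of 10 adipocyte or 10 endothelial markers was kept, and 1 of 15 leukocyte markers was (Cd68, 8.84 and 6.57 FPKM).

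Between these libraries 170 genes were at least 1 log2 unit lower in the knockout, 1.95% of the genes kept, and 40 were at least 1 log2 unit higher, 0.460%. The remaining genes lay close together. The median absolute difference was 0.135 log2 units and 92.6% of genes lay within 0.5 of 0. The large differences were nearly all on the lower side, where 72 genes were past 2 units, 39 past 3 and 16 past 4, against 5, 1 and 0 on the higher side. Of the 170 lower genes, 73 belonged to 10 lists of interferon-stimulated genes, 15 to 3 lists of the MHC class I pathway, and 3 more were Stat2, Irf9 and Irf7, which makes 53.5%. Of the 39 genes past 3 units, 34 were of these kinds. None of the 40 higher genes was. For comparison, 89 of all 8705 kept genes were on the interferon-stimulated lists and 24 on the class I lists. These lists were chosen with earlier results of these data known. Of the lower genes 59 passed the filter only through the wild-type library, and 25 of the higher genes passed only through the knockout library, so their large differences are in part set by the filter. In cultured cells measured in bulk, fewer cells with a message and less message per cell cannot be told apart.

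**Figure D1:**
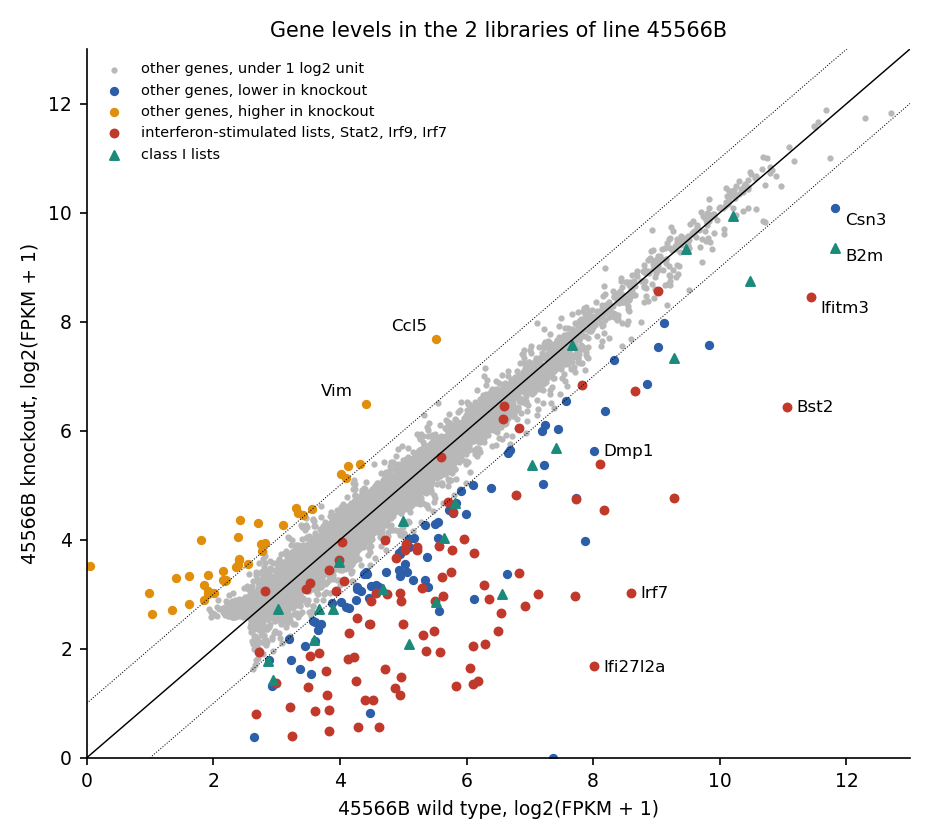
Level of each of the 8705 kept genes in 45566B wild type (horizontal axis) and knockout (vertical axis), both as log2(FPKM + 1), with equality as a solid line and 1 log2 unit to either side dotted. Most genes sit on the line, while 170 genes lie below the lower dotted line, most of the far ones in red (interferon-stimulated lists, Stat2, Irf9 and Irf7) or green (class I lists), and 40 lie above the upper one.

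The receptors and kinases at the head of the pathway were at like levels in both libraries, and some of the factors below them were not. Of 6 interferon receptor genes 5 were kept and 0 passed 1 log2 unit, with a median difference of -0.12. For the chains of the type I receptor, Ifnar1 went from 15.1 FPKM in wild type to 13.8 FPKM in knockout and Ifnar2 from 60.1 to 43.3 FPKM. Those of the type II receptor, Ifngr1 and Ifngr2, went from 58.6 to 65.1 FPKM and from 62.7 to 64.7 FPKM. The kinase Jak2 went from 8.64 to 7.13 FPKM, a difference of -0.25, and Tyk2 from 4.88 to 4.72 FPKM, just under the filter.

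The factors that carry the signal to DNA differed among themselves. Stat2, which carries type I and type III interferon signals, was at 30.8 FPKM in 45566B wild type and 4.46 FPKM in its knockout (chromosome 10 from 128270559 to 128292849, plus strand, build mm10). Elsewhere it was at 8.99 FPKM (45555 wild type), 2.15 FPKM (45555 knockout), 29.8 FPKM (47298 wild type), 10.5 FPKM (47298 knockout), 44.1 FPKM (33373), 48.9 FPKM (33377) and 4.82 FPKM (46295). Its level in the 45566B knockout lay below all 5 wild-type libraries, with a difference of -2.54 log2 units. Irf9, its DNA-binding partner, went from 43.7 to 4.03 FPKM (-3.15). The differences of Stat3 (-0.02), Stat5b (-0.02) and Stat6 (0.02) were close to 0. Stat3, the main factor below the interleukin-6 family, was at 46.4 and 45.7 FPKM.

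Irf7, a factor that amplifies type I interferon responses, had one of the largest differences of the pair. It stood at 386 FPKM in 45566B wild type and 7.16 FPKM in knockout, 53.9-fold lower (-5.57; chromosome 7 from 141262706 to 141266481, minus strand, build mm10). The other libraries held 4.18 FPKM (45555 wild type), 0.226 FPKM (45555 knockout), 11.6 FPKM (47298 wild type), 2.49 FPKM (47298 knockout), 203 FPKM (33373), 128 FPKM (33377) and 6.07 FPKM (46295). Wild-type 45566B, 33373 and 33377 were above 100 FPKM, and the 45566B knockout lay between the wild-type libraries of 45555 and 47298. Among 9 interferon regulatory factors kept, Irf7 and Irf9 were lower. Irf8 (-0.96) and Irf1 (-0.72, from 20.7 to 12.2 FPKM), a factor that responds to interferon gamma, did not reach 1 log2 unit, and the constitutive factor Irf3 was at 20.8 and 23.3 FPKM. Of 10 feedback inhibitors kept, only Usp18, which removes ISG15 and blocks the type I receptor, passed (209 to 6.79 FPKM, -4.75). Socs1 and Socs3, inhibitors of JAK kinases, were under the filter. Socs1 went from 1.05 to 0.254 FPKM and Socs3 from 0.28 to 0.496 FPKM.

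**Figure D2:**
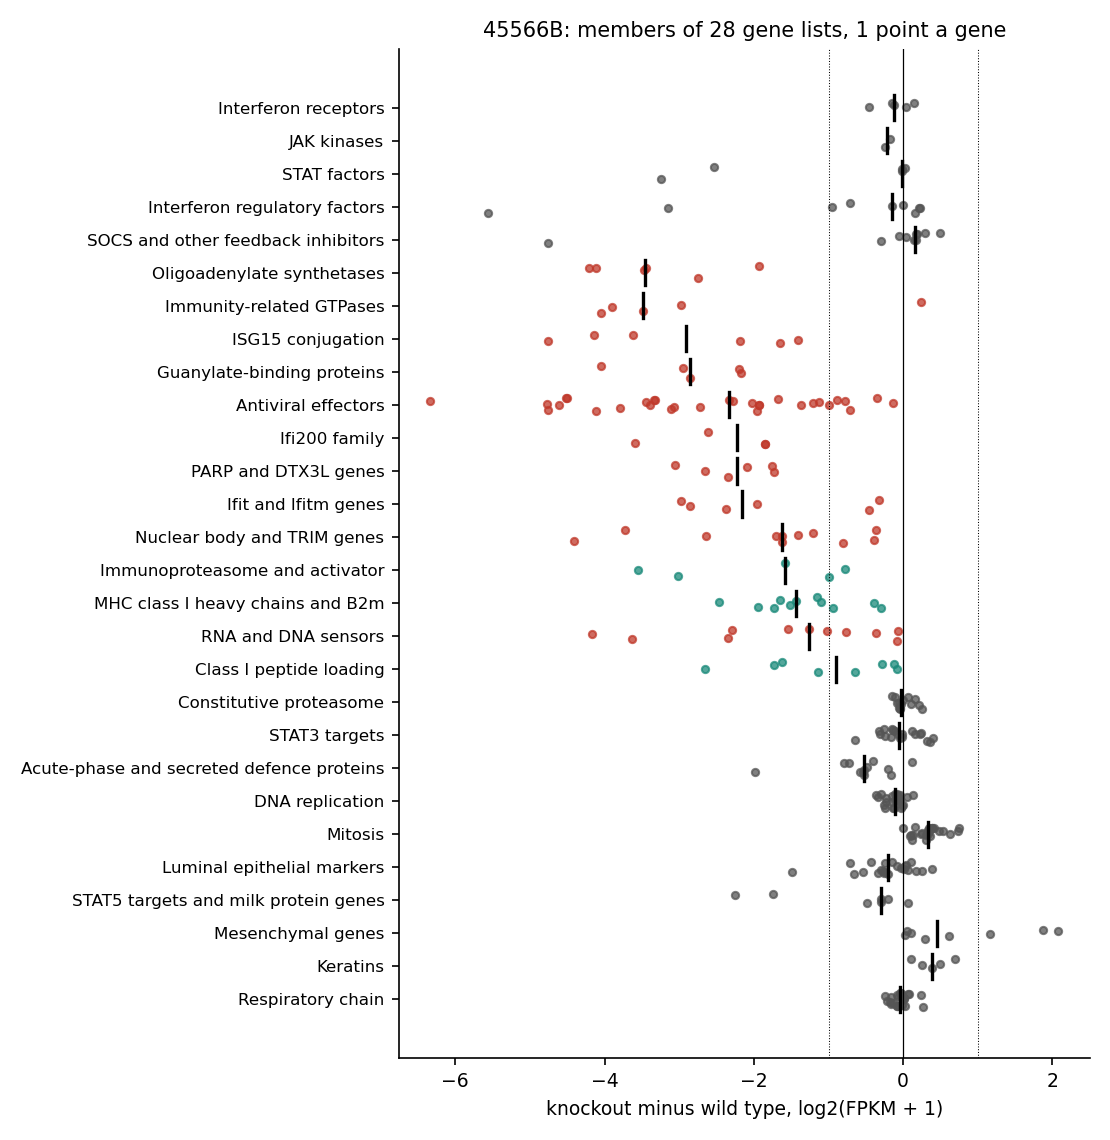
Difference between 45566B knockout and wild type in log2(FPKM + 1) for each kept member (1 point a gene) of 28 gene lists, with the list's median as a black bar and 1 log2 unit dotted. The interferon-stimulated lists (red) and class I lists (green) lie to the left, with medians from -3.48 to -0.90, while proteasome, replication, mitosis and respiratory chain genes stay within 1 unit of 0.

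Of the 126 genes in the 10 interferon-stimulated lists, 120 were in the table and 89 were kept, 38 of them only through the wild-type library. Of the 89, 73 were lower by 1 log2 unit or more and 0 were higher, with a median difference of -2.30 beside 0.01 over all kept genes. The filter keeps genes that are high in either library, which makes this median larger in size. Over all 120 it was -1.74, and 115 of the 120 were below 0. The members that were not lower are part of the picture too. Irgq, a member of the immunity-related GTPase list, was at 6.05 and 7.35 FPKM, and Ifit2 and Ifitm2 differed by -0.32 and -0.46, short of 1 unit.

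The largest difference on the lower side among the kept genes was that of AF357399 (-7.37), annotated as a small nucleolar RNA and outside these lists. With short noncoding RNAs, pseudogenes and genes known only by a number or accession left aside, the 15 largest differences on the lower side at 20 FPKM or more were all of members of these lists or Irf7. The first of them was that of Ifi27l2a, an interferon-induced mitochondrial membrane protein gene. It went from 257 FPKM in 45566B wild type to 2.2 FPKM in knockout, 117-fold lower (-6.33). In the other libraries it was at 8.88 FPKM (45555 wild type), 1.63 FPKM (45555 knockout), 57 FPKM (47298 wild type), 8.68 FPKM (47298 knockout), 41.7 FPKM (33373), 170.5 FPKM (33377) and 0.605 FPKM (46295). All 3 pairs thus had the lower value in the knockout, and the 45566B wild type was the highest of the 9. Ifi44, Apol9a, Usp18, Bst2, Lgals3bp, Apol9b, Trim30a, Oas1a, Zbp1, Ube2l6, Oasl2, Iigp1 and Gbp3 followed, with differences from -4.77 (Ifi44) to -4.05 (Gbp3). Apol9a and Apol9b, and the genes of the Oas1, Gbp, Ifi200, Trim30, Ifitm and MHC families, have close copies in the genome, between which the authors' counting may have split fragments.

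Bst2, which encodes tetherin, a membrane protein that holds budding virus particles on the cell, was among the most abundant messages in this set. It stood at 2125 FPKM in 45566B wild type and 86.1 FPKM in knockout (-4.61). The remaining libraries were at 34 FPKM (45555 wild type), 19.3 FPKM (45555 knockout), 116 FPKM (47298 wild type), 112 FPKM (47298 knockout), 1101 FPKM (33373), 875 FPKM (33377) and 108 FPKM (46295). The 45566B knockout was a little below the 47298 and 46295 libraries, and its wild type was above those of 33373 and 33377. Ifitm3, which blocks the entry of viruses from endosomes, was higher still. It went from 2774 to 352 FPKM in 45566B (-2.97), beside 1093 FPKM (45555 wild type), 201 FPKM (45555 knockout), 1849 FPKM (47298 wild type), 308 FPKM (47298 knockout), 1611 FPKM (33373), 1444 FPKM (33377) and 6.45 FPKM (46295). The 3 pairs had differences of similar size for this gene, and the knockout of 45566B kept more of it than any other knockout library.

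Isg15 is a ubiquitin-like protein that is joined to other proteins, and the genes of its conjugation system were lower together, 6 of 6. Isg15 was at 287 FPKM in 45566B wild type and 22.4 FPKM in its knockout (-3.62), and elsewhere at 12 FPKM (45555 wild type), 1.64 FPKM (45555 knockout), 34.8 FPKM (47298 wild type), 8.14 FPKM (47298 knockout), 191 FPKM (33373), 285 FPKM (33377) and 17 FPKM (46295). Every wild-type library but that of 45555 was above the 45566B knockout. Ube2l6, its conjugating enzyme, went from 121 to 5.88 FPKM (-4.15), and Uba7, its activating enzyme, from 12.8 to 2.03 FPKM (-2.18).

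Active enzymes of the oligoadenylate synthetase family make the messenger that activates RNase L. All 6 kept genes of the family were lower, with a median of -3.45 (-2.75 over all 9 in the table). In lines 45555 and 47298 the same genes had medians of -0.18 and -0.33, from low starting levels. Oas1a is an example, at 77.4 FPKM in 45566B wild type and 3.23 FPKM in knockout (-4.21). Outside this line it was at 0.0311 FPKM (45555 wild type), 0 FPKM (45555 knockout), 1.12 FPKM (47298 wild type), 0.507 FPKM (47298 knockout), 34.5 FPKM (33373), 27.9 FPKM (33377) and 0.139 FPKM (46295). Only wild-type 45566B, 33373 and 33377 were above 5 FPKM. The guanylate-binding proteins, GTPases that attack the membranes around pathogens, were lower in 5 of 5 kept genes, of which 4 passed only through the wild type. Of these Gbp3 went from 67.8 to 3.15 FPKM (-4.05) and Gbp2 from 38.1 to 7.65 FPKM (-2.18). Among the immunity-related GTPases, which act on vacuoles of intracellular pathogens, 4 of 5 were lower, such as Iigp1 (23.4 to 0.471 FPKM), Igtp (92.7 to 5.3 FPKM) and Irgm1 (211 to 26 FPKM). The median of the 5 kept was -3.48, and that of all 8 in the table -1.88. For the guanylate-binding proteins it was -2.85 over the 5 kept and -0.51 over all 11.

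The other lists of this kind followed the same direction. Of the medians given in pairs, the first is over kept genes and the second over all members in the table. In the Ifi200 family, DNA-binding proteins of the nucleus and cytosol, 4 of 4 kept genes were lower (medians -2.23 and -1.49), and 6 of 6 genes for PARP enzymes and DTX3L were (medians -2.22 and -2.22). Of 11 sensors of foreign RNA and DNA 7 were lower (medians -1.27 and -1.14), led by Zbp1 (89.4 to 4.02 FPKM), Dhx58 (46.6 to 2.83 FPKM) and Ddx58, which encodes RIG-I (53.1 to 9.6 FPKM). Of 11 genes of nuclear bodies and the TRIM family 8 were lower (medians -1.62 and -1.47), with Trim30a from 65.4 to 2.12 FPKM and Sp100 from 18.5 to 0.471 FPKM. Of 31 other antiviral effectors 25 were lower (medians -2.33 and -1.95), and of 6 Ifit and Ifitm genes 4 were (medians -2.16 and -0.82). Some lists share members, such as Usp18, Oasl2 and Trim25.

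Interferon-stimulated response elements carry the letters GAAANNGAA, and this short core was looked for on both strands in RefSeq promoter windows of build GRCm38.p6, which reach from 250 bases before a transcription start to 50 after it. Below are the last 150 bases before the start of 5 lower genes, so that the core can be seen in place. Capitals mark each match, on either strand, and overlapping matches run together. Apol9a, Bst2 and Trim30a are among the largest differences and were picked because a match lies in these bases, and Isg15 and B2m were picked after their values were seen. The windows of Irf7 and Lgals3bp hold no match, which says only that these letters are not there.
Apol9a chr15:77411081-77411230, minus strand: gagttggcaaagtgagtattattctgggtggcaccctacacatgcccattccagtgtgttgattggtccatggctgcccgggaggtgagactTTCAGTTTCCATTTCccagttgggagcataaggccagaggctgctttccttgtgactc
Bst2 chr8:71537473-71537622, minus strand: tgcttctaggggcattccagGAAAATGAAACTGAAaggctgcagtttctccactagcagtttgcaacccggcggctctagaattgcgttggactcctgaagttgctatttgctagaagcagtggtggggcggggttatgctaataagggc
Trim30a chr7:104465194-104465343, minus strand: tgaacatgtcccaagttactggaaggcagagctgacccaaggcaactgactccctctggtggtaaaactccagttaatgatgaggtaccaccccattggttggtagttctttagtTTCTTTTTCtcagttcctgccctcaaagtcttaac
Isg15 chr4:156200819-156200968, minus strand: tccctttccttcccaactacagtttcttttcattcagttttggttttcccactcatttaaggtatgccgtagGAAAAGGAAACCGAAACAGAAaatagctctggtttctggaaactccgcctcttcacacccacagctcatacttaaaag
B2m chr2:122147537-122147686, plus strand: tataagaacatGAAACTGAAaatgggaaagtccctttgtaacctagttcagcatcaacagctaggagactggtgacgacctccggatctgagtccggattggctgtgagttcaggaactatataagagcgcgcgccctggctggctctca
The matches begin at -58 and -52 from the start in Apol9a, at -130 and -124 in Bst2, at -35 in Trim30a, at -78, -72 and -66 in Isg15 and at -139 in B2m. Isg15 therefore carries a run of 3 overlapping cores, and Apol9a and Bst2 carry 2 each. A match is a description of these letters, and binding was not measured. The bases just after the start were found in an annotated transcript of each gene shown except Bst2, so its positions are less certain.

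Over all genes with a window, the core was more frequent among the lower genes than in the background. It was found in 46 of 130 lower genes (35.4%), in 34 of the 56 that belong to the interferon-stimulated lists (60.7%) and in 4 of the 14 of the class I lists (28.6%). Among higher genes 3 of 28 had it (10.7%), among all kept genes 567 of 6735 (8.42%) and among all 27025 genes with a RefSeq window 9.76%. The letters TTCNNNGAA of the gamma-activated site were in 21 of 130 lower genes (16.2%), in 4 of 28 higher genes (14.3%) and in 7.97% of kept genes. Genes of families with near-identical promoters count separately here, and many of the listed genes are known for such elements.

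The MHC class I pathway, which displays peptides from inside the cell to cytotoxic T cells, held lower genes at the steps of peptide cutting, transport and display. Of the 34 genes on its 3 lists 24 were kept, 15 were lower and 24 were below 0, with a median of -1.30. Over all 34 the median was -1.08. B2m, the light chain of every class I molecule, went from 3632 FPKM in 45566B wild type to 656 FPKM in knockout (-2.47; chromosome 2 from 122147686 to 122153083, plus strand, build mm10). In the other libraries it was at 659.8 FPKM (45555 wild type), 501 FPKM (45555 knockout), 995 FPKM (47298 wild type), 997 FPKM (47298 knockout), 3046 FPKM (33373), 1648 FPKM (33377) and 754 FPKM (46295). The wild-type library had the highest B2m of the 9 and the knockout was at the level of 45555 wild type. H2-K1, a classical heavy chain, went from 622 to 160.5 FPKM (-1.95), beside 74.3 FPKM (45555 wild type), 42.7 FPKM (45555 knockout), 89.3 FPKM (47298 wild type), 278 FPKM (47298 knockout), 513 FPKM (33373), 411 FPKM (33377) and 195 FPKM (46295). In line 47298 the knockout was the higher one, with a difference of 1.63. H2-D1 showed the same pattern, at 1432 and 430.2 FPKM in 45566B (-1.73), with -0.24 in 45555 and 1.28 in 47298. In all 8 of 11 heavy-chain list members were lower. FVB/N mice carry another MHC haplotype than the reference genome, so fragments of these genes may have been placed on the wrong family member.

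Psmb8, an immunoproteasome subunit that replaces a constitutive one to favour peptides that fit class I, had the largest difference of the pathway. It was at 92.9 FPKM in 45566B wild type and 7.04 FPKM in knockout (-3.55), beside 7.25 FPKM (45555 wild type), 0.77 FPKM (45555 knockout), 21.7 FPKM (47298 wild type), 36.5 FPKM (47298 knockout), 84.8 FPKM (33373), 100.0 FPKM (33377) and 31.4 FPKM (46295). Psmb9 (-3.01) and Psmb10 (-1.59), the other immunoproteasome subunits, were lower as well, while the activator subunits Psme2 (-0.99) and Psme1 (-0.78) did not reach 1 unit. The 14 constitutive proteasome genes had a median of -0.03 and 0 passed in either direction, such as Psmb5 at 125 and 149 FPKM. Among 8 peptide-loading genes, Tap1 (44.7 to 6.28 FPKM, -2.65) and Tap2 (-1.62), which form the peptide transporter, Tapbp (-1.73), which bridges it to class I, and the trimming peptidase Erap1 (-1.14) were lower. The general chaperones Calr (-0.28) and Pdia3 (-0.12) were not. None of 9 MHC class II pathway genes was kept.

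Some lower genes lay side by side on the chromosomes. Of the 168 with a position, 52 (31.0%) were within 100 kb of another lower gene. Among lower genes outside the interferon and class I lists and the factors Stat2, Irf9 and Irf7, 4 of 77 (5.19%) were this near another of their set. For higher genes it was 0 of 38. The share for all kept genes was not computed. The shares cannot be compared between these sets, since a larger set has more chances of a neighbour within 100 kb. There were 9 places with 3 or more lower genes in a row of such distances. Each place was drawn around its lower genes, so a high share of lower genes inside it is in part set by the drawing. On chromosome 1 (build mm10, from 173747293 to 173982744) all 4 kept genes, Ifi204, Mndal, Ifi203 and Ifi202b, were lower, and on chromosome 5 (120753098 to 120907521) so were all 4 of Oas3, Oas1b, Oas1g and Oas1a. On chromosome 17 (34181987 to 34216321) Psmb9, Tap1, Psmb8 and Tap2 stand side by side and all 4 were lower. A further stretch of chromosome 17 (33915899 to 34000347) held 9 kept genes, of which Tapbp, H2-K2 and H2-K1 were lower. These are gene families and shared loci, so neighbours are not independent of each other.

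Outside these lists and the factors Stat2, Irf9 and Irf7, 79 lower genes remained, and they were of mixed kinds. Members of other lists were few. Cfb, complement factor B, went from 68.7 to 6.55 FPKM (-3.21) while the other 4 kept complement genes, C3 among them (153 to 187 FPKM), did not pass. Of 7 checkpoint and surveillance ligands kept the only lower one was Lgals9 (276 to 41.2 FPKM, -2.71), which encodes galectin-9, a ligand of inhibitory receptors on T cells, and which is also on the list of antiviral effectors and so not among the 79. Cd274, which encodes PD-L1, was near 0 in both libraries (0.297 and 0.257 FPKM). The genes Ifi47 (-3.65), Il18bp (-2.26), Adar (-2.08), Znfx1 (-1.89), Trafd1 (-1.60) and Trex1 (-1.41), also known to respond to interferon, were on none of the lists and were picked for naming after their values were seen.

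Genes of milk and of secretory epithelium made up another group. Csn3, which encodes kappa-casein of the milk micelle, was at 3623 FPKM in 45566B wild type and 1081 FPKM in knockout (-1.74). The other libraries held 0.79 FPKM (45555 wild type), 1.04 FPKM (45555 knockout), 0.634 FPKM (47298 wild type), 1.16 FPKM (47298 knockout), 835 FPKM (33373), 14.4 FPKM (33377) and 1734 FPKM (46295). Csn1s1, an alpha casein, went from 907 to 190.5 FPKM (-2.25), and elsewhere was at 0.0446 FPKM (45555 wild type), 0.1 FPKM (45555 knockout), 0.171 FPKM (47298 wild type), 0.115 FPKM (47298 knockout), 744 FPKM (33373), 5.43 FPKM (33377) and 1.09 FPKM (46295). Neither casein was above 1.16 FPKM in 45555 or 47298, so these pairs offer no comparison. Of 7 kept STAT5 targets and milk protein genes only these 2 passed, with a median of -0.30 (-0.01 over all 16 in the table). The list's summed level was 6984 FPKM in wild type and 3124 FPKM in knockout. Most of the difference between these sums came from the 2 caseins. Ltf, lactoferrin (-0.48), Elf5 (-0.21), a factor of the secretory lineage, and Socs2 (-0.29), a STAT5 target, stayed under 1 unit. Pigr, the receptor that carries antibodies across epithelium, went from 462 to 116 FPKM (-1.99) and was the only one of 12 acute-phase and secreted defence genes to pass. Of these 12, 11 were below 0, with a median of -0.52. Over all 27 in the table the median was -0.02, with 14 below 0, 7 above and 6 at 0. Lcn2, lipocalin 2, one of the most abundant messages of the line, differed by -0.52.

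Further lower genes, picked for their size after the values were seen, were high in 45566B and nearly absent elsewhere. 2310057J18Rik went from 232 to 14.8 FPKM (-3.89) and was at most 0.105 FPKM in the other 7 libraries. Dmp1, a matrix protein known from bone and teeth, went from 257 to 48.8 FPKM (-2.37), and was at most 3.29 FPKM elsewhere. Ceacam10 (147 to 31.5 FPKM), Cd177 (148 to 40.4 FPKM), Ly6c2 (46.2 to 5.49 FPKM) and Wif1, a secreted Wnt inhibitor (146 to 62.6 FPKM), had the same pattern. Ly6a, which encodes the surface protein Sca-1, was the only luminal marker to pass (518 to 185 FPKM, -1.48), with differences of -1.92 in 45555 and -5.40 in 47298. Ccl20, a chemokine for CCR6-bearing lymphocytes, went from 172 to 64.5 FPKM (-1.40).

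On the higher side Ccl5 stood out, a chemokine that draws T cells and can be induced by interferon, by NF-kappaB and by IRF3. It was at 44.6 FPKM in 45566B wild type and 204 FPKM in knockout (2.17). The other libraries were at 0.16 FPKM (45555 wild type), 0.12 FPKM (45555 knockout), 1.72 FPKM (47298 wild type), 9.89 FPKM (47298 knockout), 13.1 FPKM (33373), 15.7 FPKM (33377) and 128 FPKM (46295). The knockout libraries of 45566B and 46295 were the highest of the 9, and that of 45555 was the lowest. Ccl2, a chemokine for monocytes, went from 5.74 to 14.1 FPKM (1.17), and both are among 9 chemokines kept, with a median of 0.01.

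Of 8 mesenchymal genes kept, 3 were higher and 0 lower, with a median of 0.45. Of these 8, 1 passed the filter only through the knockout library. Over all 24 in the table the median was 0.04, with 18 above 0 and 5 below. Vim, the intermediate filament of mesenchymal cells, was at 20.2 FPKM in 45566B wild type and 88.5 FPKM in knockout (2.08). Elsewhere its level was 2595 FPKM (45555 wild type), 3218 FPKM (45555 knockout), 2352 FPKM (47298 wild type), 1189 FPKM (47298 knockout), 416 FPKM (33373), 2315 FPKM (33377) and 25.1 FPKM (46295). Both values were therefore far below those of 45555 and 47298 and on either side of that of 46295. Sparc, a matrix protein, went from 1.67 to 8.79 FPKM (1.88). Fn1 (0.30) and Twist1 (0.05) did not pass. The summed level of 15 fibroblast markers was 12.2 FPKM in wild type and 21.4 FPKM in knockout. Most of both sums came from Col5a2 (10.9 and 19.8 FPKM), the only 1 of the 15 that was kept. Whether fibroblasts had a part in these differences was not tested. The epithelial genes Cdh1 (162 and 135 FPKM), Epcam (-0.08) and Krt18 (0.10) stayed under 1 unit, as did all 5 keratins kept, with a median of 0.39. Of the remaining higher genes, Col11a1, a cartilage collagen chain (8.94 to 23.1 FPKM), Nqo1, an NRF2 target (16.5 to 39.7 FPKM), Ankrd1, a YAP target (15.2 to 36 FPKM), and Plau, which encodes urokinase (10.7 to 22.6 FPKM), were among the largest at 20 FPKM or more. Nqo1 was the only one of 14 NRF2 targets to pass.

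Some differences involve genes with a near-identical copy. Eif3j1, the largest difference on the higher side, went from 0.0344 to 10.5 FPKM and was at most 0.0726 FPKM in the other 7 libraries, while its close copy Eif3j2 went from 34.2 to 28.9 FPKM. Atp6v0c-ps2, a pseudogene of a proton pump subunit, went from 210.2 to 26.4 FPKM, while Atp6v0c went from 137 to 252 FPKM. These values are uncertain. AF357399, the small nucleolar RNA gene named above, was listed at 164 FPKM in wild type and at 0 in knockout, and it was also listed at 0 in 4 of the other libraries.

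Genes below STAT3, which JAK1 also serves, were at like levels in both libraries of 45566B. Of 20 kept STAT3 targets 0 passed in either direction, with a median of -0.05, beside -0.83 in 45555 and -0.76 in 47298. Cebpd, a factor induced by STAT3, is an example. It went from 8.9 to 12.1 FPKM in 45566B (0.40), beside 39.2 FPKM (45555 wild type), 3.95 FPKM (45555 knockout), 58.1 FPKM (47298 wild type), 3.34 FPKM (47298 knockout), 98.1 FPKM (33373), 84.6 FPKM (33377) and 32.5 FPKM (46295). The wild-type level in 45566B was the lowest of the 5 wild-type libraries. Socs3 was likewise at 0.28 and 0.496 FPKM in 45566B, and at 10.4 FPKM (45555 wild type), 4.55 FPKM (45555 knockout), 24.1 FPKM (47298 wild type), 2.37 FPKM (47298 knockout), 14.3 FPKM (33373), 17.5 FPKM (33377) and 4.66 FPKM (46295). Of 10 immediate-early factors kept 0 passed (median 0.12), with Fos at 12.5 and 9.83 FPKM, while its difference was -3.81 in 45555 and -2.63 in 47298. Il6st, which encodes the shared receptor gp130, was at 22.2 and 21.2 FPKM in 45566B.

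**Figure D3:**
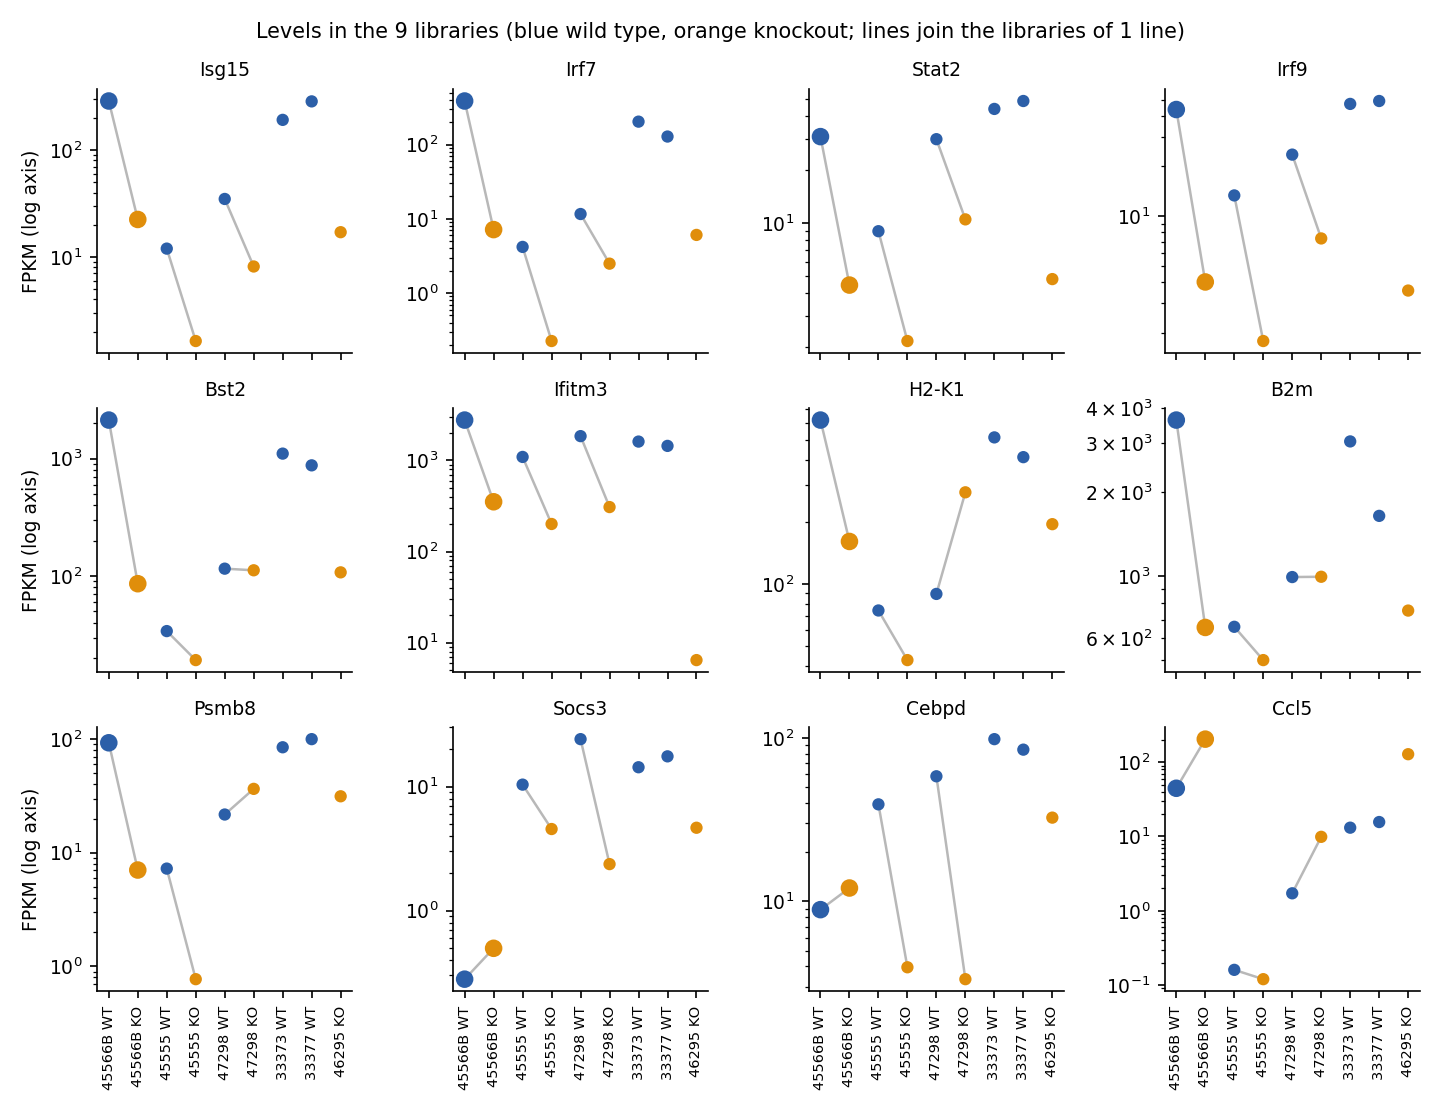
FPKM (logarithmic axes, with their own range in each panel) of 12 genes in the 9 libraries, wild type in blue and knockout in orange, with lines joining the libraries of 1 line and large points for 45566B. Isg15, Irf7, Stat2, Irf9 and Ifitm3 are lower in the knockout of each pair, H2-K1 and Psmb8 are higher in the knockout of 47298, and Socs3 and Cebpd are low in both 45566B libraries.

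Housekeeping and growth programmes differed little in this line. Of 25 DNA replication genes 0 passed, with a median of -0.11, although 23 of these 25 were below 0. Of 24 mitosis genes 0 passed, with a median of 0.34, although 23 of these 24 were above 0. In 45555 and 47298 the replication genes had medians of 1.39 and 0.75. The 24 respiratory chain genes (median -0.04), 18 genes of glycolysis and hypoxia (-0.15), 22 of cholesterol synthesis (-0.19) and 24 ribosomal proteins (0.12) held no gene past 1 unit. Nor did the 12 ERK output genes (-0.24) or the 11 ErbB receptors and ligands (-0.08). Erbb2 was at 335 and 264 FPKM, a value in which the mouse gene and the rat transgene cannot be told apart.

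By chromosome, the median difference of genes was between -0.02 and 0.02 on 17 of 20 chromosomes, and 0.23 on chromosome 14, 0.10 on chromosome 17 and 0.08 on chromosome 9. On chromosome 14, 229 of 277 genes (82.7%) were above 0, beside 51.9% of all genes with a position. In windows of 10 Mb with 20 or more genes, all 6 windows of chromosome 14 had medians between 0.166 and 0.272, while the other 166 windows ran from -0.147 to 0.175. The interferon and class I loci of chromosome 17 lie on a chromosome with a raised median. In 47298 the medians of chromosomes 12, 4 and 10 were -0.53, -0.42 and -0.29. Chromosome 14 was singled out after the medians were seen. The cause of these shifts was not tested.

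**Figure D4:**
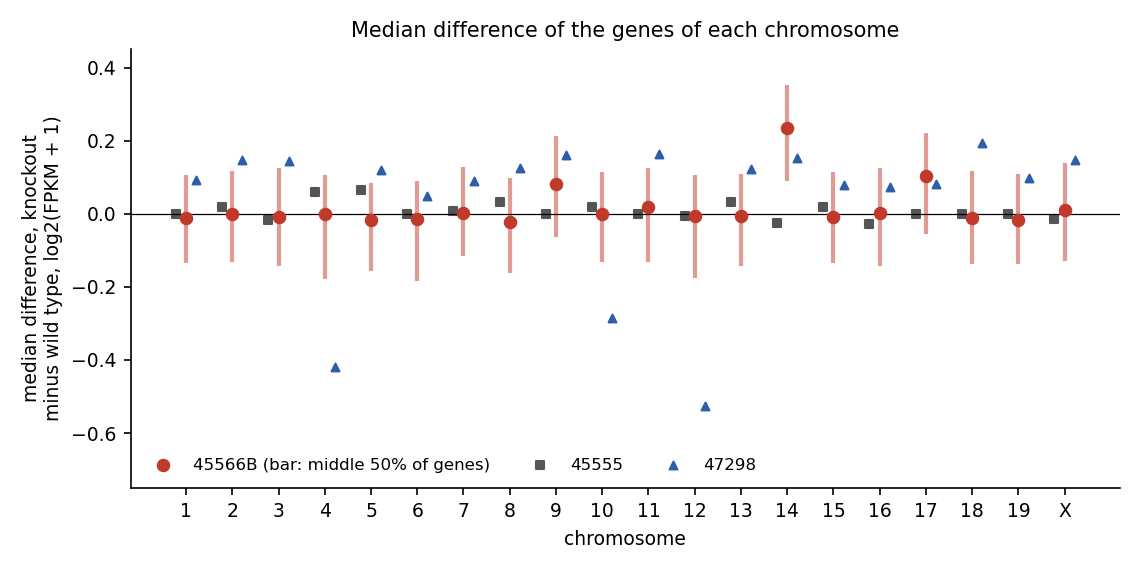
Median difference between knockout and wild type in log2(FPKM + 1) over the genes kept in 45566B on each chromosome, for 45566B (red circles, with bars over the middle 50% of its genes), 45555 (grey squares) and 47298 (blue triangles). Chromosome 14 stands at 0.23 in 45566B, and chromosomes 4, 10 and 12 stand at -0.42, -0.29 and -0.53 in 47298.

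The other lines show how far these differences recur. The call of 1 log2 unit gave 578 lower genes (6.51% of 8884) and 309 higher genes (3.48%) in 45555, and 1106 lower (11.8% of 9379) and 821 higher (8.75%) in 47298, each among genes at 5 FPKM or more in that line. The median absolute difference was 0.344 in 45555 and 0.416 in 47298. Of the 170 genes lower in 45566B, taken at any level in the other line, 48 (28.2%) were lower in 45555 and 45 (26.5%) in 47298. Seen from the other side, 31 of the 578 genes lower in 45555 (5.36%) and 43 of the 1106 lower in 47298 (3.89%) were lower in 45566B. Only 308 of those 578 and 520 of those 1106 reached 5 FPKM in 45566B, so the rest had little room to be lower in that line. There were 26 genes lower in all 3 pairs and 103 lower in neither other pair. Only 75 of the 170 reached 5 FPKM in 45555 and 111 in 47298, so many had little room to be lower there. In 47298, 21 of the 170 were at least 1 unit higher in the knockout, Irgm1 (1.23) and H2-K1 among them. The single gene past 1 unit in the opposite direction in both other pairs was Atp1b1, a sodium pump subunit (-1.17, 1.65 and 2.35 in 45566B, 45555 and 47298).

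The 26 shared genes were Dhx58, Gbp2, Ifi202b, Ifi203, Ifi204, Ifi27, Ifi27l2a, Ifit1, Ifitm3, Irf7, Irf9, Irgm2, Isg15, Ly6a, Mndal, Oasl2, Parp14, Plac8, Rtp4, Samd9l, Slfn2, Sp100, Stat2, Tgfbr3, Trim30a and Xaf1. Of these, Ly6a, Plac8 and Tgfbr3 lie outside the interferon and class I lists and are not among the 3 factors named above.

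The levels behind these differences varied between lines. Over the 89 kept genes of the interferon-stimulated lists, the median level was 36.2 FPKM in 45566B wild type and 6.79 FPKM in knockout. In the wild type of 45555 it was 4.70 FPKM and in its knockout 1.81 FPKM. In 47298 the median went from 10.7 to 6.18 FPKM, and it was 29.2 FPKM in 33373, 24.4 FPKM in 33377 and 6.53 FPKM in 46295. The 45566B wild type was the highest of the 9 libraries for 49 of the 89 genes, a count that the filter favours, since a gene could pass through this library alone. Its knockout was above the 45555 wild type for 45 genes and above the 47298 wild type for 22, and below all 5 wild-type libraries for 42. For the 24 class I genes the medians were 52.3 FPKM in wild type and 17.3 FPKM in knockout.

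**Figure D5:**
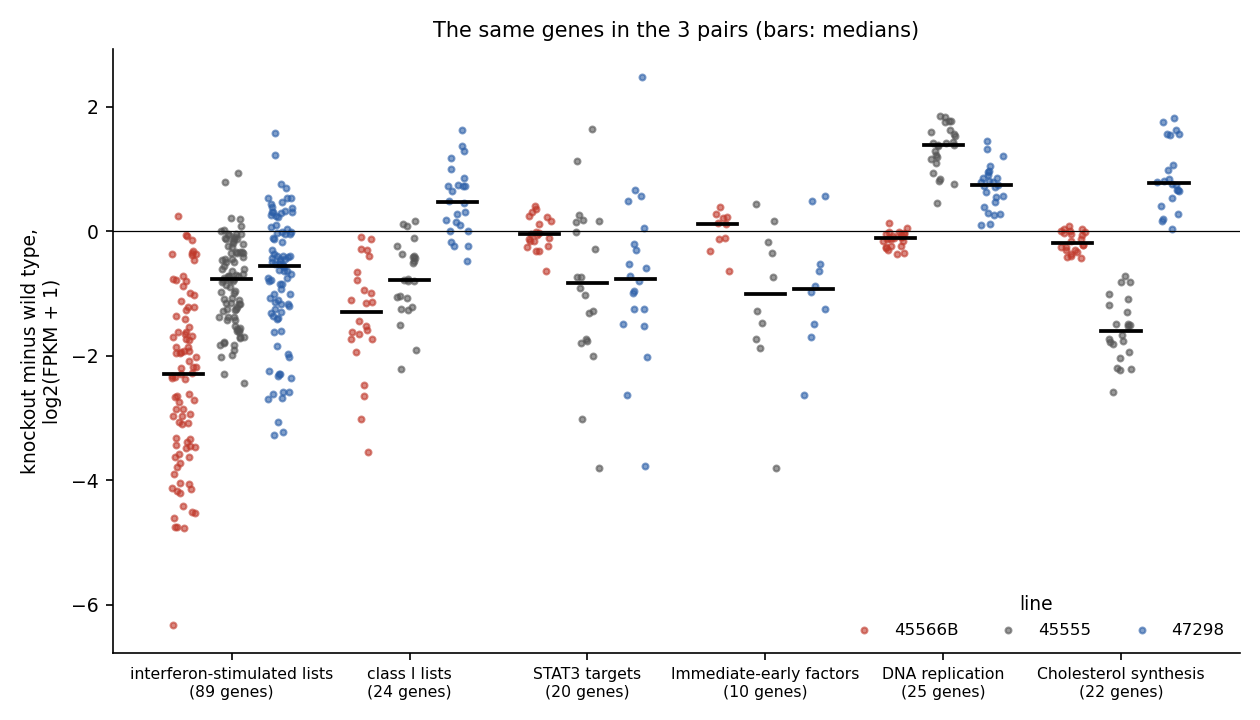
Difference between knockout and wild type in log2(FPKM + 1) in lines 45566B (red), 45555 (grey) and 47298 (blue) for the same genes, those kept in 45566B, of 6 sets, with medians as black bars. The medians of the interferon-stimulated lists are -2.30, -0.77 and -0.55, those of the class I lists -1.30, -0.78 and 0.47, and those of DNA replication -0.11, 1.39 and 0.75.

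Whether the difference in 45566B departs from that in the other 2 pairs was tested across 10448 genes in 1 limma fit of the 6 libraries, with the line as a block and an extra knockout term for 45566B. With 1 residual degree of freedom it called 0 genes (0%) at a Benjamini-Hochberg adjusted p under 0.05, and 157 genes (1.50%) had an unadjusted p under 0.05. The extra term fits the 45566B pair exactly. An SE from this fit therefore holds no error of that pair, and rests on the other 2 pairs and a variance shared across genes. In this limma fit Irf7 was -3.60 log2 units further down in 45566B than in the mean of the others (SE 0.43). Low levels in the other lines limit how far a gene could be lower there. Irf7, and Bst2, Cebpd and Serpina3n named next, stand near the top of the fit ordered by p, so they are not typical of its genes. Bst2 gave -4.19 (SE 0.54) and B2m -2.27 (SE 0.66), and Cebpd gave 3.79 (SE 0.54) and Serpina3n, an acute-phase protease inhibitor, 4.15 (SE 0.48), all with an adjusted p of 1.000. Serpina3n was at 2.02 and 1.51 FPKM in 45566B and at 50.9 FPKM (45555 wild type), 1.98 FPKM (45555 knockout), 711 FPKM (47298 wild type), 26.2 FPKM (47298 knockout), 114 FPKM (33373), 46 FPKM (33377) and 0.683 FPKM (46295). With so few degrees of freedom the test could hardly call any gene, so the count of 0 does not show that the lines were alike or that they differed.

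Close to the limit of 1 log2 unit, the last genes counted as lower were Zc3hav1 (-1.017), Tcirg1 (-1.017) and Man1a (-1.007), and the first not counted were BC064078 (-0.999), Slc16a6 (-0.997) and Psme2 (-0.989). On the higher side Adam8 (1.005), Plau (1.008) and Lrrk1 (1.014) were counted and Gadd45b (0.987), Tubb2a (0.977) and Msln (0.962) were not.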

How the data were processed

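The authors deposited FPKM for each gene symbol. The submitters' processing notes name Cuffnorm, Cufflinks 2.2, TopHat2 2.1, cutadapt and the build mm10, without their order or role. Neither the annotation nor the scaling option nor the use of strand is stated, and without strand the fragments of a gene and its antisense partner cannot be told apart. The table of all 9 libraries was used, and a smaller table holding 4 of them was not. A spreadsheet had turned 27 symbols into dates, and 4 rows with a repeated name were left out.

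From these values the differences of log2(FPKM + 1) were computed with pandas 2.3.3, with a pseudocount of 1, a filter of 5 FPKM and a call at 1 log2 unit. This scale understates the change of low genes. The test between lines used limma 3.58.1 in R 4.3.3 with a trend of the variance on the mean. It was two-sided. On simulated data it called 0.2% of genes given an added difference of 4 log2 units and 25.2% of those given 8 log2 units. Positions came from GENCODE vM21 (8384 of the kept symbols matched) and promoters from RefSeq (130 of the 170 lower genes matched).

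Of the 57 gene lists, written from textbook knowledge with 866 genes, 859 genes were in the table. The comparison, the lists and the members were chosen with earlier results of these data known. Genes were named by a rule: Jak1, the 15 largest differences each way at 20 FPKM or more (without short noncoding RNAs, pseudogenes and genes known only by a number or accession), up to 4 members a list, a fixed set of pathway genes and those nearest the limit. Some genes named by the rule are not reported here. Alternatives were other pseudocounts, filters, scalings and limits, and filters on the genes of the lists.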

Additional observations from a re-analysis of the deposited data

How the results depend on the processing

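Of the counts within 45566B, the 170 lower genes became 125 to 248 under 9 other settings (pseudocounts of 0.1 and 5, other filters, short noncoding RNA symbols kept, 2 scalings, and the median of each chromosome subtracted, which was added after seeing the data), and 72 with a limit of 2 log2 units. The 40 higher genes were less stable. They became 12 with a pseudocount of 5, 62 with no filter on low values, 62 with a filter of 1 FPKM, 10 with a filter of 20 FPKM, 90 with short noncoding RNA symbols kept and 5 with a limit of 2 log2 units, and 37 to 45 under the other 4 settings. Among single genes, scaling both libraries to the same summed FPKM took 15 of 656 under the limit and brought 3 past it, and no gene changed sign past the limit under any setting run. The median of class I peptide loading, -0.90, became -1.14 with a filter of 1 FPKM. The limma test between lines called 0 genes under all 5 alternatives, but with 1 residual degree of freedom in each it could hardly call any, so this says nothing of stability. The share of lower genes with GAAANNGAA was 28.5% when the 250 bases before the start alone were searched, beside 7.20% of all kept genes. No library could be left out, since each state had 1. No paired analysis was possible because the comparison within 45566B comes from no test; the test between lines holds the line as a block. Depth limits low genes most, and the number of fragments behind them is unknown.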

Other observations

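Other gene groups in the pair of 45566B libraries held few differences. Of 15 kept p53 targets 0 passed 1 log2 unit, but 13 were above 0 in the knockout, with a median of 0.27. Cdkn1a, which encodes the cell cycle inhibitor p21, was at 114 FPKM in wild type and 149.7 FPKM in knockout, and Mdm2, which encodes the ligase that degrades p53, at 47.6 and 59.3 FPKM. In the TGF-beta system 2 of 18 kept genes were higher and 1 was lower. Id3, an inhibitor of helix-loop-helix factors, went from 3.44 to 9.83 FPKM (1.29), and Tgfbr3, the co-receptor betaglycan, went from 20.5 to 9.41 FPKM (-1.05). The difference of Tgfbr3 was -1.96 in 45555 and -1.44 in 47298.

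Stress and adhesion genes stayed within 1 unit. Of 18 kept genes of the unfolded protein and integrated stress responses 14 were below 0 (median -0.24), with Slc7a11, the cystine transporter, at 13.4 and 7.12 FPKM. The 12 tight junction genes had a median of -0.09, the 14 genes of adherens junctions and desmosomes -0.02 and the 15 integrin and laminin genes 0.04. In 47298 the same 15 integrin and laminin genes had a median of 1.03. Of 20 basal and myoepithelial markers 4 were kept and 0 passed, Krt14 being at 3.57 and 6.39 FPKM. Ulbp1, a ligand of the natural killer cell receptor NKG2D, was the only checkpoint or surveillance ligand higher in the knockout, at 4.31 and 11.5 FPKM (1.24).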
